A study of Rattus norvegicus with 14 samples.

Results

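Rat small intestine was examined for genes of the endoplasmic reticulum (ER) stress response and of its transcription factor ATF4. The group was defined by 9 gene symbols: Herpud1, Trib3, Slc3a2, Asns, Ddit3, Atf4, Hspa5, Xbp1 and Hsp90b1. Of these, 6 genes were on the array, with 7 probes among 4952, since Atf4 has 2 probes. Hspa5, Xbp1 and Hsp90b1 were not on the array under those symbols and were not analysed here. The genes were selected on their ratios in these same arrays, with Herpud1, Trib3 and Slc3a2 put first, so their values are given as a description. On all 5 arrays at 4 h, Herpud1, Trib3, Slc3a2 and both Atf4 probes had ratios above 0 and above every array at 20 min, with mean differences between the times from 0.56 for Slc3a2 to 1.15 for Herpud1 on the log2 scale. Of all features, 3.42% had every one of these 4 h arrays above every 20 min array. On array 6, a repeat at 4 h whose dyes may be swapped and which was left out, all of them were below 0, with Trib3 near it at -0.03. Ddit3 and Asns overlapped between the times.

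The RNA came from small intestine of rats aged 20 days (Rattus norvegicus), perfused with solutions labelled HG and HF for 4 h or for 20 min. HG and HF are read as high glucose and high fructose, which is knowledge of the study and not stated in its labels. The strain and sex of the animals were not used here. Each of 14 arrays of 2 colours gave a ratio of its channels, with HG against HF on 5 arrays at 4 h (pairs 1 to 5) and on 4 arrays at 20 min. Array 6 was a second array of pair 2 at 4 h, and 1 more array held only primers from a labelling kit. On the 3 arrays 1HG, 3HG and 3HF, called same-RNA arrays here, both channels held 1 RNA. That RNA was of 4 h perfusion, so no same-RNA array matches the 20 min group. By their titles these arrays carry the numbers of pairs 1 and 3 at 4 h. The labels do not say whether pairs came from separate animals, so the spread between arrays may be partly technical. Intestine without either solution was not among the arrays, so a rise with HF and a fall with HG cannot be told apart. Precision is limited by these small numbers of arrays.

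Proteins that fold badly in the ER set off the unfolded protein response, in which the sensors PERK, IRE1 and ATF6 raise chaperones, enzymes of protein degradation and the factor XBP1. PERK and related kinases phosphorylate the initiation factor eIF2, which slows most translation while the mRNA of ATF4 is translated more. ATF4 then drives genes of amino acid transport and synthesis, and with prolonged stress the factor CHOP, encoded by Ddit3. The small intestine secretes mucus, lipoproteins and antimicrobial peptides through the ER, and it absorbs amino acids.

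The promoters of Herpud1 and Trib3 are shown because both genes stood apart at 4 h and their windows, unlike those of the other measured members, held matches to motifs of the pathway. Both are RefSeq sequences of the assembly GRCr8, from 250 bases before to 50 bases after the annotated start, 5′ to 3′ on the gene's strand. Capitals mark matches to the motifs described after them. Herpud1 lies at chr19:10614658-10614957, minus strand, and Trib3 at chr3:161275484-161275783, minus strand.
Herpud1: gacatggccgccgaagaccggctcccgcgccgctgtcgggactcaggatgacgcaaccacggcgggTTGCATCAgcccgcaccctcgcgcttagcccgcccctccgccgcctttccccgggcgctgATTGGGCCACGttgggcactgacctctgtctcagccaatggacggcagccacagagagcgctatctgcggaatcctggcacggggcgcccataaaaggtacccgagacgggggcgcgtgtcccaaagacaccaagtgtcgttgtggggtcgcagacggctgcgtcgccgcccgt
Trib3: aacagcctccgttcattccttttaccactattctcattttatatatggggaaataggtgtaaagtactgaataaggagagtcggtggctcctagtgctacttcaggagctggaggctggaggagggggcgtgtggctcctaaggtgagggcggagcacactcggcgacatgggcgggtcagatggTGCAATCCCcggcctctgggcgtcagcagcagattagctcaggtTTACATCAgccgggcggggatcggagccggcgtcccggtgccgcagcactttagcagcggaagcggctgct

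Of 5 motifs searched on both strands, the Herpud1 window held ATTGGNCCACG (the ER stress response element II, ERSE-II) from -124 to -114, counted from the start. It also held TGATGNAA, the composite element bound by ATF4 with a C/EBP factor, on the opposite strand from -184 to -177. The Trib3 window held TGATGNAA on the opposite strand from -21 to -14 and TGCAATNCC, a CHOP element, from -65 to -57. The windows of Slc3a2 (which has 2 starts in the table), Asns, Ddit3 and Atf4 held none of the 5. Among 33469 promoter windows of the same length, ERSE-II was present in 17 (0.0508%), TGATGNAA in 1332 (3.98%) and TGCAATNCC in 207 (0.618%). The ER stress response element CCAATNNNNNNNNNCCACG (ERSE) was present in 22 windows (0.0657%), with Hspa5, Xbp1 and Hsp90b1 among them and no measured member. The element TGACGTGG (UPRE) was present in 199 (0.595%), with no member among them. These matches are descriptions of letters in a window, and binding was not measured.

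Values are the deposited ratios, read as log2, after the median of each array was subtracted. No label or header states the direction. A positive value likely stands for more RNA with HF, because Slc2a5, the gene of a transporter known to be induced by fructose, had a mean ratio of 1.65 at 4 h. The title of array 6 also carries the digits 5 and 3, and its dyes may be swapped. Herpud1, Slc3a2 and Atf4 had the opposite sign there, whereas Ddit3 and Asns did not. Since these genes were chosen from the same data, their signs cannot decide the orientation of array 6. Every direction in what follows rests on reading a positive value as more RNA with HF. On 11 of the 12 arrays of the fit the ratios of all probes had an SD from 0.30 to 0.40, whereas the same-RNA array 1HG had an SD of 1.39. On 1HG 228 probes lay beyond 2 on the log2 scale, 149 of them among the first 750 probe numbers, which include Asns and an Atf4 probe. Array 6 had an SD of 0.82, was left out of the fit and is given as single values.

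Herpud1 encodes a protein of the ER membrane that helps to deliver misfolded proteins for degradation. On arrays 1 to 5 at 4 h its log2 ratios were 0.73, 0.49, 1.17, 1.02 and 1.08. At 20 min they were -0.33, -0.49, -0.66 and 0.47, and on the same-RNA arrays 1HG, 3HG and 3HF they were 0.08, 0.19 and -0.01. All 5 ratios at 4 h were above 0 and above every ratio of the other groups, while 3 of 4 at 20 min were below every same-RNA value and replicate 4 was above them. On the 4 h arrays Herpud1 stood between rank 29 and rank 296 of 4682 features counted from the highest ratio. At 20 min it stood between rank 4189 and rank 4571 on 3 arrays and at rank 254 on replicate 4.

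The mean log2 ratio of Herpud1 was 0.90 ± 0.28 (SD, n = 5) at 4 h, -0.25 ± 0.50 (SD, n = 4) at 20 min and 0.09 ± 0.10 (SD, n = 3) on the same-RNA arrays. The 4 h mean exceeded the same-RNA mean by 0.81 ± 0.23 (SE, log2 scale) and the 20 min mean by 1.15 ± 0.21, a 2.22-fold higher ratio if the values are log2. The 20 min mean differed from the same-RNA mean by -0.34 ± 0.24, with overlapping groups. Replicate 4 at 20 min sets the spread of that group. Without it the difference between the times was 1.39 and that of 20 min from the same-RNA mean -0.58, while without replicate 3 at 20 min the latter was -0.20.

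Trib3 encodes a pseudokinase that ATF4 and CHOP induce and that binds both AKT and ATF4. Its log2 ratios at 4 h were 0.49, 0.54, 0.77, 0.86 and 0.29 on arrays 1 to 5. They were 0.16, -0.13, -0.0048 and -0.25 at 20 min and 0.07, -0.11 and 0.17 on 1HG, 3HG and 3HF. The lowest 4 h value lay above the highest value of both other groups, which overlapped each other. Its mean was 0.59 ± 0.23 (SD, n = 5) at 4 h, -0.06 ± 0.17 (SD, n = 4) at 20 min and 0.04 ± 0.14 (SD, n = 3) on the same-RNA arrays. The 4 h mean was higher by 0.55 ± 0.14 (SE) than on the same-RNA arrays and by 0.65 ± 0.13 than at 20 min, the latter a 1.57-fold higher ratio.

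Slc3a2 encodes the heavy chain CD98 (4F2hc), which carries light chains such as LAT1 to the cell surface, where they exchange amino acids. Its log2 ratios at 4 h were 0.68, 0.14, 0.62, 0.69 and 0.17. At 20 min they were -0.25, -0.01, -0.18 and 0.03, and on 1HG, 3HG and 3HF they were 0.08, -0.20 and 0.05. The 4 h values fell into 3 high arrays (1, 3 and 4) and 2 low ones (2 and 5), and the low ones lay only just above the other groups. Means were 0.46 ± 0.28 (SD, n = 5) at 4 h, -0.10 ± 0.13 (SD, n = 4) at 20 min and -0.02 ± 0.16 (SD, n = 3) on the same-RNA arrays. The 4 h mean was higher by 0.48 ± 0.15 (SE) than on the same-RNA arrays and by 0.56 ± 0.14 than at 20 min.

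**Figure D1:**
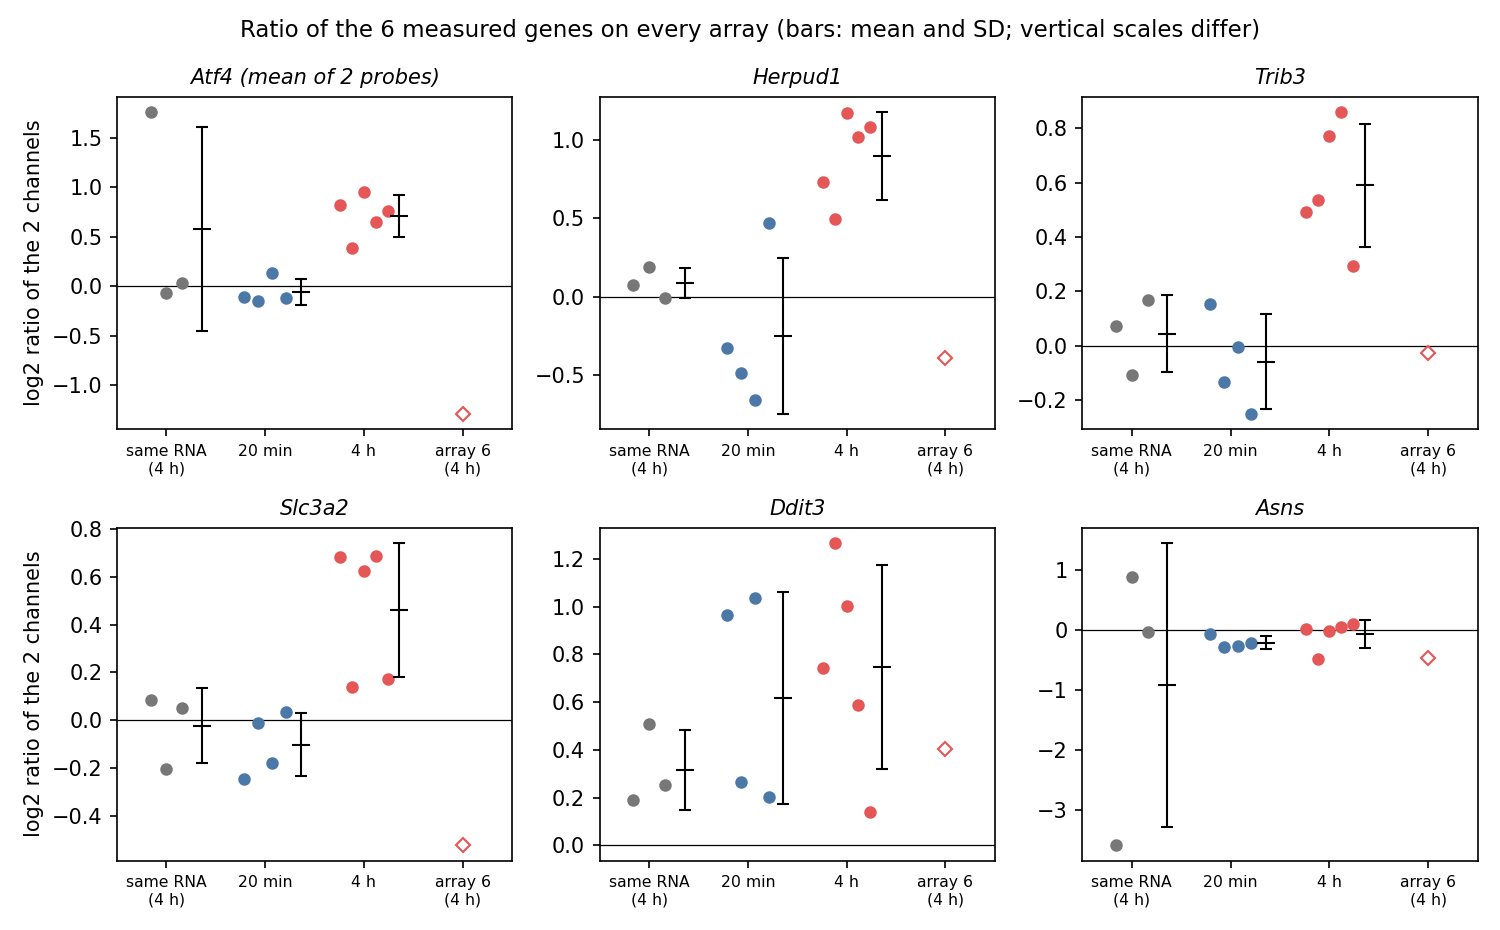
Log2 ratio of the 6 measured genes (vertical axes, with different scales) on the same-RNA arrays, the 20 min arrays, the 4 h arrays and array 6. Each point is 1 array, the bars give the mean and SD of a group, and the open diamond is array 6. Herpud1, Trib3 and Slc3a2 have all 5 points at 4 h above the points of the 20 min and same-RNA groups, Ddit3 has overlapping groups, and the same-RNA group of Asns and Atf4 is spread by the array 1HG.

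Atf4 encodes the transcription factor at the centre of the pathway, and its 2 probes were at odds on 1 array. Probe 4818 read 1.14, 0.32, 1.31, 0.83 and 0.90 at 4 h, -0.05, -0.11, 0.22 and 0.06 at 20 min, and 0.03, 0.00 and 0.01 on 1HG, 3HG and 3HF. Probe 621 read 0.50, 0.46, 0.60, 0.47 and 0.61 at 4 h, -0.16, -0.18, 0.06 and -0.30 at 20 min, and 3.50, -0.13 and 0.05 on the same-RNA arrays. With each probe the 5 values at 4 h lay above the 4 at 20 min. Against the same-RNA arrays probe 4818 did not overlap either, whereas the value of 3.50 on 1HG put probe 621 of that array above all others.

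The mean of both Atf4 probes was 0.72 ± 0.21 (SD, n = 5) at 4 h and -0.06 ± 0.13 (SD, n = 4) at 20 min, a difference of 0.77 ± 0.31 (SE) or 1.71-fold. That SE takes in the spread of the same-RNA group, and with only the 2 times in the fit it was 0.13. On the same-RNA arrays the mean was 0.58 ± 1.03 (SD, n = 3), so the 4 h mean exceeded it by only 0.14 ± 0.33. Without 1HG that difference was 0.73 ± 0.15, and with probe 4818 alone, all arrays kept, it was 0.89. The 20 min mean differed from the same-RNA mean by -0.63 ± 0.35 with 1HG and by -0.04 ± 0.16 without it.

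**Figure D2:**
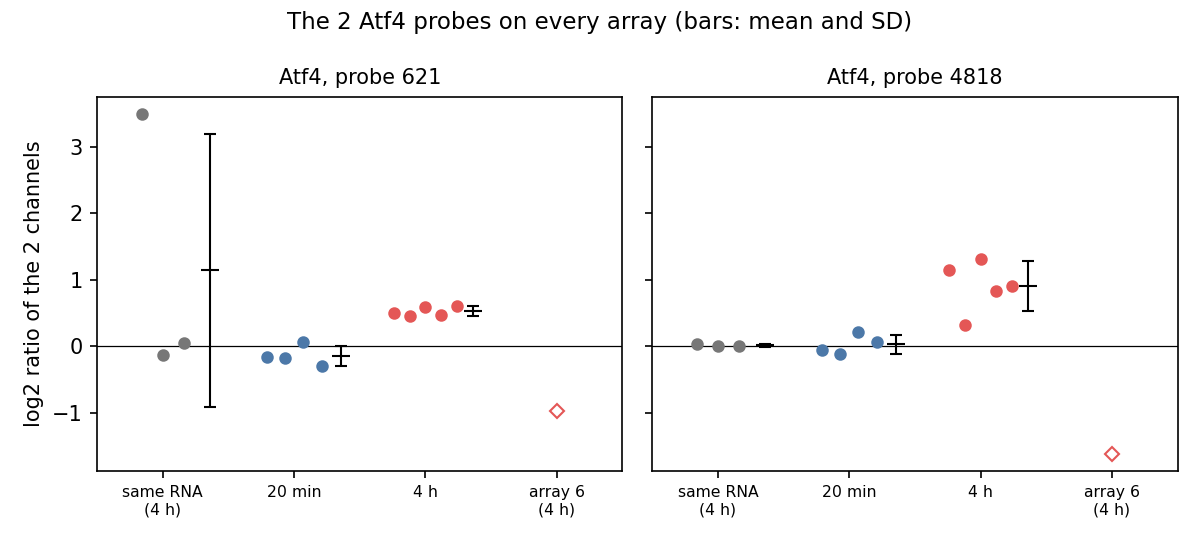
Log2 ratio (vertical axis) of the 2 Atf4 probes, 621 on the left and 4818 on the right, on the same-RNA, 20 min and 4 h arrays and array 6. Points are single arrays, bars give the mean and SD of a group and the open diamond is array 6. Both probes have all 4 h points above the 20 min points, and probe 621 has a single same-RNA point at 3.50.

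Ddit3 encodes CHOP, the transcription factor that ATF4 induces under prolonged stress. It read 0.74, 1.27, 1.00, 0.59 and 0.14 at 4 h, 0.96, 0.27, 1.04 and 0.20 at 20 min, and 0.19, 0.51 and 0.25 on 1HG, 3HG and 3HF. The ratios were above 0 on all 14 arrays, those with 1 RNA in both channels included, and the groups overlapped. Means were 0.75 ± 0.43 (SD, n = 5), 0.62 ± 0.44 (SD, n = 4) and 0.32 ± 0.17 (SD, n = 3). The difference from the same-RNA arrays was 0.43 ± 0.26 (SE) at 4 h and 0.30 ± 0.27 at 20 min, and the difference between the times was 0.13 ± 0.24. Without replicate 1 or replicate 3 at 20 min the difference of that group from the same-RNA arrays was 0.19 or 0.16. At both times Ddit3 thus lay farther from 0 than from the same-RNA mean.

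Asns encodes asparagine synthetase, which makes asparagine and is a known ATF4 target. It read 0.01, -0.48, -0.02, 0.06 and 0.10 at 4 h and -0.06, -0.29, -0.27 and -0.22 at 20 min. The same-RNA arrays gave -3.59 on 1HG, 0.89 on 3HG and -0.03 on 3HF, a wider range than that of the 4 h and 20 min arrays together. The times overlapped and differed by 0.14 ± 0.66 (SE). That SE takes in the spread of the same-RNA group, and with only the 2 times in the fit it was 0.13. The difference from the same-RNA arrays at 4 h was 0.84 ± 0.72 with 1HG and -0.50 ± 0.21 without it, and at 20 min 0.70 ± 0.76 and -0.64 ± 0.22, so its sign rested on that array.

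At 4 h against 20 min all 6 genes differed upwards, with a median of 0.61 on the log2 scale against -0.01 over all 4682 features. Of the 6, Herpud1, Trib3, Slc3a2 and Atf4 (4 genes) had all 4 h arrays above all 20 min arrays, as had 3.42% of all features. At 4 h against the same-RNA arrays all 6 differences were above 0, with a median of 0.52 against -0.01 over all features, of which 48.5% were above 0. Without 1HG 5 of the 6 were above 0, with a median of 0.55, since Asns was then at -0.50. With 1HG kept, the 4 h arrays of Herpud1, Trib3 and Slc3a2 lay above all same-RNA arrays, as was so for 3.31% of all features. At 20 min 2 of 6 differences from the same-RNA arrays were above 0, the median was -0.09 against 0.00 over all features, and no member lay wholly above them, where 3.57% of features did. Without 1HG 1 of the 6, Ddit3, was above 0 there. These shares describe genes that had been chosen from the same values, and nothing is read from them.

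In limma's fit over all features, with Benjamini-Hochberg adjustment and a threshold of 0.05, 1 of the 6 genes was called between the times, against 0.598% of all features. That gene was Herpud1, with an adjusted p of 0.0392, and it ranked 8 of 4682 by the size of its difference upwards. Without 1 array in turn it stayed below the threshold in 3 of 12 fits, those without array 2 at 4 h, without replicate 4 at 20 min and without 1HG. It was above 0.05 without arrays 1, 3, 4 or 5 at 4 h, without replicates 1, 2 or 3 at 20 min and without 3HG or 3HF, with differences from 1.01 to 1.19. Trib3 ranked 29 with an adjusted p of 0.0542, which became 0.0322 without array 5 and 0.0352 without 1HG. These were the only 2 of its 12 such fits below 0.05, and without replicate 2 at 20 min it was 0.175. Atf4 ranked 19 with an adjusted p of 0.290, which became 0.0117 without 1HG. That was the only 1 of its 12 such fits below 0.05, and without replicate 2 at 20 min it was 0.458. Slc3a2 ranked 47 with an adjusted p of 0.122 and was above 0.05 in every fit that left out 1 array. At 4 h and at 20 min against the same-RNA arrays 0 of 6 were called, against 0.0641% and 0.0427% of all features. At an unadjusted p under 0.05 Herpud1, Trib3 and Slc3a2 passed at 4 h, as did 467 of 4682 features, and none at 20 min, where 244 of 4682 features did. Since the 6 genes were chosen from the same values, these p-values only describe them.

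**Figure D3:**
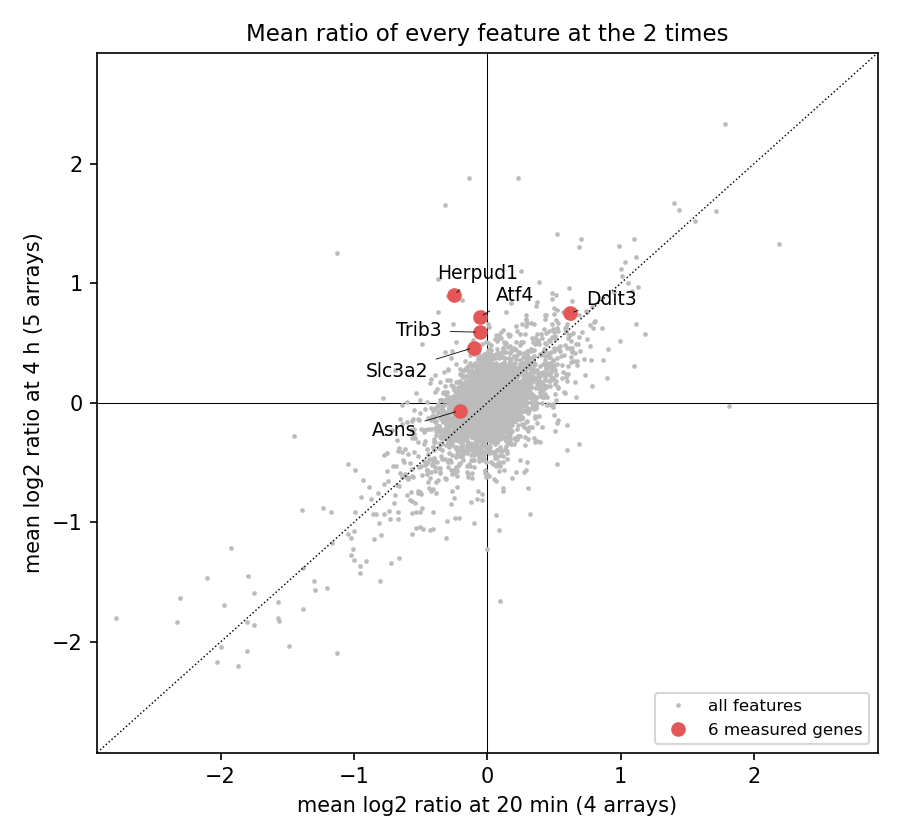
Mean log2 ratio of each of 4682 features at 20 min (horizontal axis, 4 arrays) and at 4 h (vertical axis, 5 arrays), with the 6 measured genes in red and the line of equal means dotted. Herpud1, Atf4, Trib3 and Slc3a2 lie above the line near or left of 0 at 20 min, Ddit3 lies near the line at 0.62 and 0.75, and Asns lies near the origin.

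Array 6 repeated pair 2, and its values were set beside those of array 2. Herpud1 was 0.49 on array 2 and -0.39 on array 6, and Slc3a2 was 0.14 and -0.52. Trib3 was 0.54 and -0.03, and Atf4 probe 4818 was 0.32 and -1.61. Ddit3 kept its sign, at 1.27 and 0.40, and Asns was -0.48 and -0.46. Herpud1, Slc3a2 and Atf4, which stood apart between the times, thus had the opposite sign on array 6, where Trib3 was near 0. On the primer array the ratios lay between -0.25 for Atf4 probe 4818 and 0.29 for Asns.

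The arrays held 90 further genes of the pathway and its neighbours, in 7 lists. None of the 90 was called in any of the comparisons by limma. At an unadjusted p under 0.05, 9 of the 90 passed between the times, where 633 of 4682 features did. Against the same-RNA arrays 11 of the 90 passed at 4 h and 2 at 20 min, where 467 and 244 of 4682 features did. Between the times 52 of the 90 lay above 0, with a median difference of 0.03 against -0.01 over all features. In that comparison 1 of the 90 had all 4 h arrays above all 20 min arrays and 3 had them below. Of all features, 3.42% lay wholly above and 3.12% wholly below.

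Among chaperones and folding enzymes of the ER 16 genes were measured, of which 12 were higher at 4 h than at 20 min, with a median of 0.08. Dnajc3, which encodes the ER co-chaperone p58IPK, an inhibitor of PERK, had a mean log2 ratio of 0.49 ± 0.23 (SD, n = 5) at 4 h. It was -0.04 ± 0.16 (SD, n = 4) at 20 min and 0.11 ± 0.08 (SD, n = 3) on the same-RNA arrays, with all 4 h values above both. Of all features, 3.42% had all 4 h arrays above the 20 min arrays and 3.31% above the same-RNA arrays. Its difference between the times was 0.54 ± 0.12 (SE; adjusted p = 0.0935), close to that of Slc3a2. Canx, encoding the lectin chaperone calnexin, differed by 0.47 ± 0.16 with overlapping groups (adjusted p = 0.217). Pdia4, a disulfide isomerase, differed by 0.24 ± 0.12 (adjusted p = 0.418).

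Dnajb9, which encodes the ER co-chaperone ERdj4, lay the other way. Its mean was 0.26 ± 0.18 (SD, n = 5) at 4 h and 0.57 ± 0.12 (SD, n = 4) at 20 min, a difference of -0.31 ± 0.11 (SE; adjusted p = 0.227), and its 4 h arrays lay wholly below its 20 min arrays, as 3.12% of all features did. The same-RNA mean was 0.22 ± 0.12 (SD, n = 3), and its 20 min arrays lay wholly above the same-RNA arrays, as 3.57% of all features did. Calr, encoding the chaperone calreticulin, was 0.28 ± 0.06 (SD, n = 5) at 4 h and -0.06 ± 0.19 (SD, n = 3) on the same-RNA arrays. All its 4 h arrays lay above the same-RNA arrays, as was so for 3.31% of all features. At 20 min Calr was 0.18 ± 0.19 (SD, n = 4), overlapping both.

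The sensors and transducers of the pathway had 15 measured genes, 9 of them higher at 4 h than at 20 min, with a median of 0.07 and a range from -0.17 to 0.29. Eif2ak3, which encodes PERK, differed by 0.14 ± 0.12 (SE). The gene with the smallest unadjusted p was Tmbim6, encoding an ER membrane protein that restrains IRE1, with 0.29 ± 0.15 (adjusted p = 0.426). Eif2ak2, encoding the kinase PKR, differed by -0.16, and Eif2b4 and Eif2b3, subunits of the exchange factor eIF2B, by -0.17 and 0.16. Of 10 genes of ER-associated degradation and translocation 7 were higher, with a median of 0.05. The values there ranged from -0.17 for Ssr4, a subunit of the translocon-associated complex, to 0.18 for Serp1, which stabilises membrane proteins under stress. Ufd1, of the complex that extracts proteins for degradation, differed by 0.16 ± 0.14 (SE) and Sec11a, of the signal peptidase, by 0.10 ± 0.09.

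The other targets of ATF4 and CHOP were mixed. Of 23 measured, 9 were higher at 4 h than at 20 min and 14 were lower, with a median of -0.08. Atf3 differed by 0.12 ± 0.16 (SE), Slc7a5, which encodes the LAT1 light chain that pairs with CD98, by -0.15 ± 0.12, and Ppp1r15a, encoding the eIF2 phosphatase subunit GADD34, by -0.24 ± 0.16. Phgdh, the first enzyme of serine synthesis, differed by -0.09 ± 0.22, with an SE of 0.12 when 1HG was left out of the fit. Against the same-RNA arrays Ppp1r15a differed at 4 h by -0.47 ± 0.17 (SE; -0.58 without 1HG) and Stc2, a secreted glycoprotein, by -0.61 ± 0.16 (-0.70 without 1HG). Both had all 4 h arrays below all same-RNA arrays, as had 3.4% of all features.

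Vegfa, an angiogenic factor and a target of ATF4, had the highest difference of that list, 0.64 ± 0.22 (SE; adjusted p = 0.217). Its mean ratio was -1.47 ± 0.33 (SD, n = 5) at 4 h, -2.10 ± 0.43 (SD, n = 4) at 20 min and -1.82 ± 0.24 (SD, n = 3) on the same-RNA arrays. The ratio of Vegfa was thus far below 0 also where both channels held 1 RNA. Between the times Stc2 differed by -0.38 ± 0.15 without overlap, Slc6a9, a glycine transporter, differed by -0.26 ± 0.15, and Cebpg, a partner of ATF4, by 0.14 ± 0.08. Of the aminoacyl-tRNA synthetases, also ATF4 targets, Iars and Vars1 were measured and differed by -0.15 and 0.07.

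**Figure D4:**
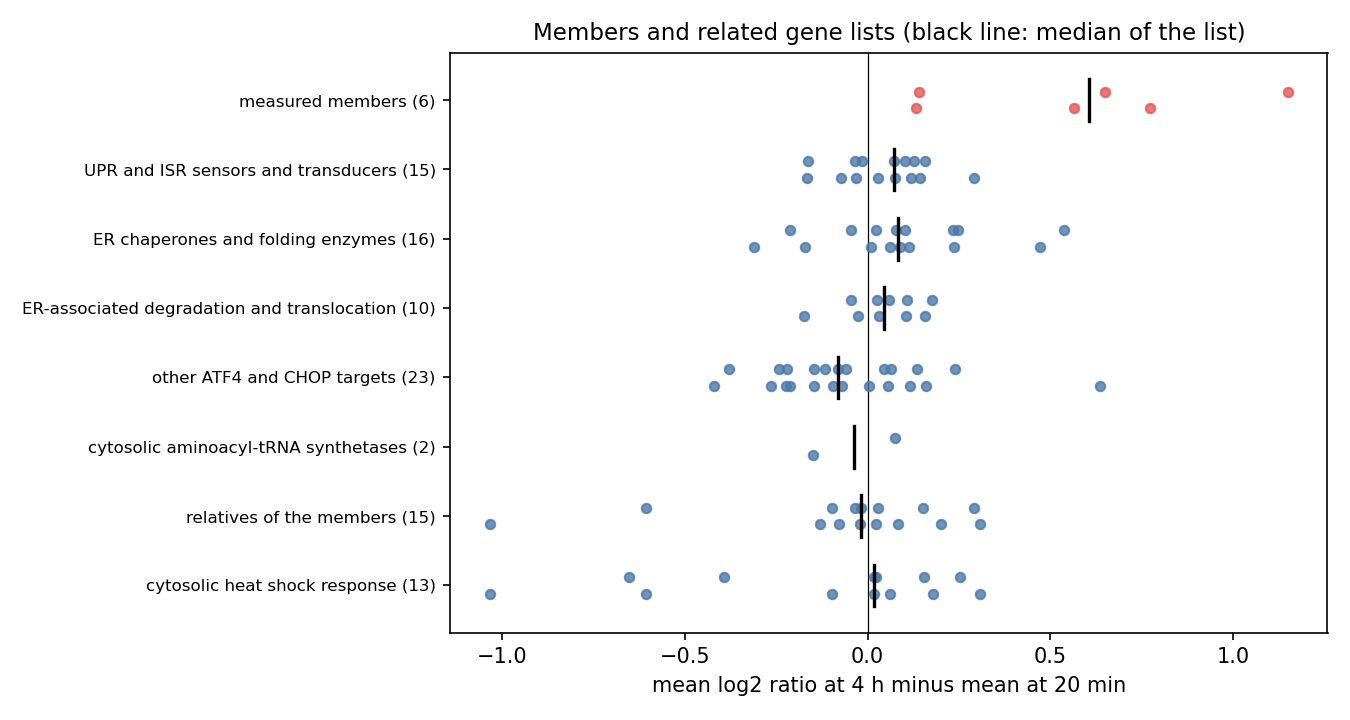
Difference between the mean log2 ratio at 4 h and at 20 min (horizontal axis) of the 6 measured genes and of the genes of 7 related lists, with the number of genes in brackets. Each point is 1 gene and the black line is the median of the list. The medians of the lists lie between -0.08 and 0.08 and that of the 6 genes, which were chosen from these values, at 0.61.

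Genes related to the members by family were also listed. Of 15 measured 7 were higher at 4 h than at 20 min, with a median of -0.02. Slc3a1, which encodes the other heavy chain of this transporter family, differed by 0.29 ± 0.19 (SE), with a 4 h range from -0.13 to 0.94. Trib1 differed by 0.15 ± 0.20, Cebpa by 0.31 ± 0.11 (adjusted p = 0.249) and Hspa9, a mitochondrial relative of the ER chaperone gene Hspa5, by 0.20 ± 0.10. The cytosolic heat shock list had 13 measured genes, 8 higher, with a median of 0.02. The heat shock factor genes Hsf1 and Hsf2 differed by 0.31 ± 0.11 and 0.25 ± 0.10. The small heat shock gene Cryab differed by -0.65 ± 0.19 without overlap (adjusted p = 0.161). Hspa1b, encoding an inducible cytosolic chaperone, differed by -1.03 ± 0.63, with arrays from -2.07 to 0.99 at 4 h alone.

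Likeness of pattern was measured as Pearson r over the 12 arrays of the fit. These points form 3 groups, so a high r mostly reflects the same difference between the groups, and the features share arrays and centring. The features most like Herpud1 were Cyth2 (r = 0.94), Stx5 (0.91), Ctbp1 (0.88), Polr1a (0.87) and Stmn1 (0.84). Of the members, Slc3a2 had r = 0.79 with Herpud1 and ranked 32, and Trib3 had 0.70 and ranked 101. Atf4 had r = 0.47 with Herpud1, or 0.81 without 1HG. Ddit3 had r = -0.03 and Asns 0.17.

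Trib3 was most like Slc2a5 (r = 0.91), which encodes the fructose transporter GLUT5 and had means of 1.65 at 4 h, -0.32 at 20 min and -0.04 on the same-RNA arrays. Rpl24 (0.89) and Rps27 (0.88), of ribosomal proteins, followed. Slc3a2 was most like Rps26 (0.91), Acads (0.91) and Polr1a (0.88). Spearman's rho of these closest features was 0.95 for Herpud1 with Cyth2, 0.83 for Trib3 with Slc2a5 and 0.85 for Slc3a2 with Rps26. By rho Slc2a5 ranked only 15 for Trib3 and Rps26 only 14 for Slc3a2, and without 1HG each of the 3 ranked 2 by r.

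Markers of the cell types of the gut wall were given beside these results. The arrays hold ratios and no levels, so whether the labelled tissue expresses its defining markers could not be checked. Of 14 enterocyte markers 10 were measured, and their median log2 ratio per array lay between -0.42 and -0.13 at 4 h. It lay between -0.16 and -0.03 at 20 min and between -0.11 and -0.08 on the same-RNA arrays. The enterocyte medians were thus below 0 in each of the 3 groups. Those at 4 h lay below every same-RNA array, while they overlapped the 20 min arrays. Gene by gene, 5 of the 10 were higher at 4 h than on the same-RNA arrays and 5 lower, with a median difference of 0.0008. Between the times 4 of the 10 were higher and 6 lower, with differences from -0.50 to 0.34 and a median of -0.17. None was called by limma, and 3 had an unadjusted p under 0.05. The 14 measured markers of pancreatic acinar cells had medians per array from -0.21 to -0.08 at 4 h, -0.13 to -0.03 at 20 min and -0.04 to 0.01 on the same-RNA arrays. Other lists lay on the same side as the members between the times: 5 of 5 blood markers were higher at 4 h, with a median difference of 0.21, and 6 of 8 goblet and Paneth markers, with a median of 0.28. In that comparison 8 of 10 enteroendocrine and 4 of 5 smooth muscle markers were lower, with medians of -0.09 and -0.11, and neuron and glia (6 of 10 higher) and immune markers (4 of 6 higher) had medians of 0.02 and 0.07. For these 6 lists the medians per array overlapped between the times, and limma called none of their genes, with 1 smooth muscle and 1 immune marker at an unadjusted p under 0.05. In a piece of gut, fewer cells of a type and less RNA per cell cannot be told apart, and the part of cell composition in the ratios of the members was not tested.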

How the data were processed

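Each of the 14 arrays of 2 colours gave 1 column of a table that the authors deposited, with 4952 probes, read here as log2 ratios. No label or file header used here states the base, scanner, normalization or direction. Channel 1 held HG and channel 2 HF on the arrays at 4 h and 20 min, per the labels. A different base would scale all differences by 1 factor without altering calls. The platform annotation named the probes, of which 4426 had 1 symbol, 2 several and 524 none.

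Each array was centred on its median and probes of 1 symbol were averaged, which left 4682 features. A single limma 3.58.1 fit in R 4.3.3 (lmFit, eBayes) took 12 arrays in 3 groups, with 9 residual degrees of freedom and 2.84 prior degrees of freedom, and no block. The fit treated the 12 arrays as independent, although the same-RNA arrays carry the numbers of 4 h pairs. Array 6, whose dyes may be swapped, and the primer array were left out. Features with a Benjamini-Hochberg adjusted p below 0.05 over all features were called. The fit was tested on simulated data. The members, gene lists, motifs and comparisons were chosen with earlier results of these data known. Named are every measured member, up to 4 genes per pathway list with the smallest p between the times, the 5 features most like Herpud1 and 3 each for Trib3 and Slc3a2. Other genes of the lists (Eif2ak3, Calr, Atf3, Slc7a5, Ppp1r15a, Phgdh and Trib1) and Slc2a5's means were added after their values were seen. Alternatives were the centring, the scaling, single probes, the groups in the fit, array weights, a robust prior, array 6, a replicate block, the ratio against 0 and each array left out.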

Additional observations from a re-analysis of the deposited data

Results flagged for a closer look

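The difference of Herpud1 between 4 h and 20 min, 1.15 on the log2 scale, was called by limma. The gene was chosen with that result known, so the call is a description and no independent test. It held in 3 of the 12 fits that left out 1 array. On array 6, which is outside the fit, Herpud1 (-0.39), Slc3a2 (-0.52) and Atf4 probe 4818 (-1.61) lay beyond the range of the same-RNA arrays and on the other side of 0 from arrays 1 to 5. Array 6 had a wide SD of 0.82 over all probes, and Herpud1 and Slc3a2 ranked only 3775 and 4050 of 4682 there. The share of all features that did the same was not counted.

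Single arrays lay far from the rest of their group for 4 of 33 items examined in 2 groups each, where the Atf4 mean and its 2 probes were separate items. About 1 in 20 separate groups would show this by chance. The items share arrays and were chosen from these data, so the number seen cannot be judged against that rate. Asns was -0.48 on array 2 at 4 h. Atf4 was 0.14 on replicate 3 at 20 min. Hspa9 was 0.19 on replicate 1 at 20 min, and Slc6a9 was 0.14 on array 2 at 4 h. The causes were not tested.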

How the results depend on the processing

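The differences of Herpud1, Trib3 and Slc3a2 kept their sign in all comparisons under every alternative run. For the 4 h differences, leaving out 1 array could not have changed it, since their 4 h arrays lay wholly above both other groups. Between the times Herpud1 ranged from 1.01 to 1.47 (adjusted p from 0.00323 to 0.217, below 0.05 in 10 of 23), Trib3 from 0.58 to 0.72 (below 0.05 in 5 of 23), Slc3a2 from 0.50 to 0.64 (in 0 of 23, with adjusted p from 0.0707) and Atf4 from 0.60 to 0.95 (in 4 of 24). With a replicate block Herpud1 was 1.10 (adjusted p = 0.0882), Ddit3 at 4 h and 20 min against the same-RNA arrays was 0.79 and 0.51, and the number of features called fell to 12. Deviations from the group means correlated from -0.07 to 0.16 between 4 h and 20 min arrays of the same number. That check left out the same-RNA arrays and cannot decide whether samples were paired. Sign changes were seen for Asns in 3 alternatives at 4 h and 4 at 20 min against the same-RNA arrays, for Atf4 in 5 and 1, and for Ddit3 in 2 between the times.

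Over all features 28 were called between the times, but 16 with arrays scaled to 1 spread, 0 with array 6 averaged into array 2 as deposited and 18 with its sign turned. At 20 min against the same-RNA arrays the count of 2 became 0 with arrays scaled, with only the 2 groups in the fit, with each of the 3 ways of averaging array 6 in and with the block. At 4 h the count of 3 became 0 with array 6 as deposited. Tested as a ratio against 0, with no same-RNA arrays subtracted, 763 features were called at 4 h and 384 at 20 min, with Herpud1, Trib3, Slc3a2, Atf4 and Ddit3 among them at 4 h. With each array left out in turn the counts ranged from 2 to 5 at 4 h, 0 to 4 at 20 min and 4 to 43 between the times, where 43 was without 1HG. Genes of the pathway lists were called only as a ratio against 0, by 1 to 7 per list where any was. The causes were not tested. Signal over background was not used here, so no probe was judged dim.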
